A study of Mus musculus with 80 samples.

Results

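Liver RNA from formalin-fixed, paraffin-embedded (FFPE) tissue was compared between mice fed di(2-ethylhexyl)phthalate (DEHP) at 6000 ppm and mice fed 0 ppm, with 4 animals in each group. These 8 libraries, of 80 in the series, were taken by preparation, dose and animal: 29B, 44A, 64C and 8C at 6000 ppm and 32A, 45C, 63A and 75A at 0 ppm. DEHP is a plasticizer, and it was given in the feed for 7 days. The mice were B6C3F1 hybrid males, a toxicology strain, labelled as 4 weeks old, and all the livers were collected in 2013. The FFPE blocks held the left lateral, caudate and right medial lobes, and RNA came from 4 sections of 10 µm per block. The series also holds FFPE libraries at 1500 and 3000 ppm, frozen liver of the same DEHP animals, and livers from a second chemical, which were not used here. The question put to the fixed tissue, going by the series title, is how dose response reads out in archival blocks.

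DEHP is hydrolysed in the gut and liver to a monoester that activates the nuclear receptor PPAR alpha in rodent hepatocytes. PPAR alpha pairs with RXR at promoters and enhancers of genes that take up, activate and oxidise fatty acids in peroxisomes, mitochondria and the endoplasmic reticulum. Sustained activation in rodents enlarges the liver and multiplies peroxisomes, and CAR, another receptor that responds to foreign compounds, can be activated by DEHP as well.

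The 8 libraries held 14250210 to 18648521 expected counts at 6000 ppm and 13977928 to 17944966 at 0 ppm. The ribosomal precursor Rn45s took 1.63% to 5.03% of the counts at 6000 ppm and 2.09% to 4.16% at 0 ppm. Rows named by GenBank clone accessions took 23.8% to 28.9% at 6000 ppm and 18.7% to 22.2% at 0 ppm, so these ranges did not overlap, and what RNA those rows hold was not tested. The column names start with 3 different prefixes, whose meaning the headers do not give, and each prefix holds both groups (1 library against 1, 1 against 2 and 2 against 1). Within every prefix, 1636 of the 1680 called genes, or 97.4%, and 6343 of all 13581 genes tested, or 46.7%, had the sign of their own fold change, and the called genes were chosen on these same libraries. Each library is a separate animal, per the titles. Levels below are CPM, counts scaled with TMM to a library size of 1e+06, fold changes are log2 values of 6000 over 0 ppm with their standard error (SE), and adjusted p values are from edgeR's quasi-likelihood test with Benjamini-Hochberg adjustment.

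Of 13581 genes tested, 1680 passed an adjusted p of 0.05, which is 12.4%. Of these, 1078 were higher at 6000 ppm (7.94% of the genes tested) and 602 were lower (4.43%). All 4 libraries at 6000 ppm lay beyond every control for 1981 genes, or 14.6%, and the median log2 fold change over all genes was -0.0085. Among the rises, 386 were at least 2-fold, and among the falls 157 were. These shares are the background for the counts of gene lists that follow.

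Fatty acid omega-hydroxylases of the Cyp4 family, which oxidise the far end of a fatty acid chain, held some of the most abundant transcripts that rose. Cyp4a14 (mm10 chromosome 4, 115486200 to 115496142, minus strand) had 3039 CPM in 29B, 6888 in 44A, 5872 in 64C and 6807 in 8C at 6000 ppm, against 130.1 in 32A, 13.3 in 45C, 9.35 in 63A and 7.00 in 75A at 0 ppm. The groups were far apart, yet 29B was lowest of the treated animals and 32A was highest of the controls. Its log2 fold change was 7.15 ± 0.83 (adjusted p 3.92e-05), and 9.16 ± 0.37 without 32A. Cyp4a10 had 2069, 4497, 4046 and 4110 CPM at 6000 ppm in the same animal order, against 188.6, 17.4, 7.85 and 9.05 CPM at 0 ppm, which gave 6.05 ± 0.86 (adjusted p 2.04e-04), or 8.33 ± 0.37 without 32A. Of the 13 Cyp4 genes tested, of 18 listed, 7 rose and 2 fell, and the list median was 0.85. Cyp4a12b rose by 3.32 ± 0.35 and Cyp4a12a by 1.07 ± 0.13, while the falls were Cyp4f14 and Cyp4v3. Copies in this family are alike: 30.5% of the 50-base words of the longest Cyp4a10 transcript also occur in another gene, mostly Cyp4a32, and 48.9% of those of Cyp4a12a occur in Cyp4a12b, so reads can be split between them. For Cyp4a14 the share was 0.245%.

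**Figure D1:**
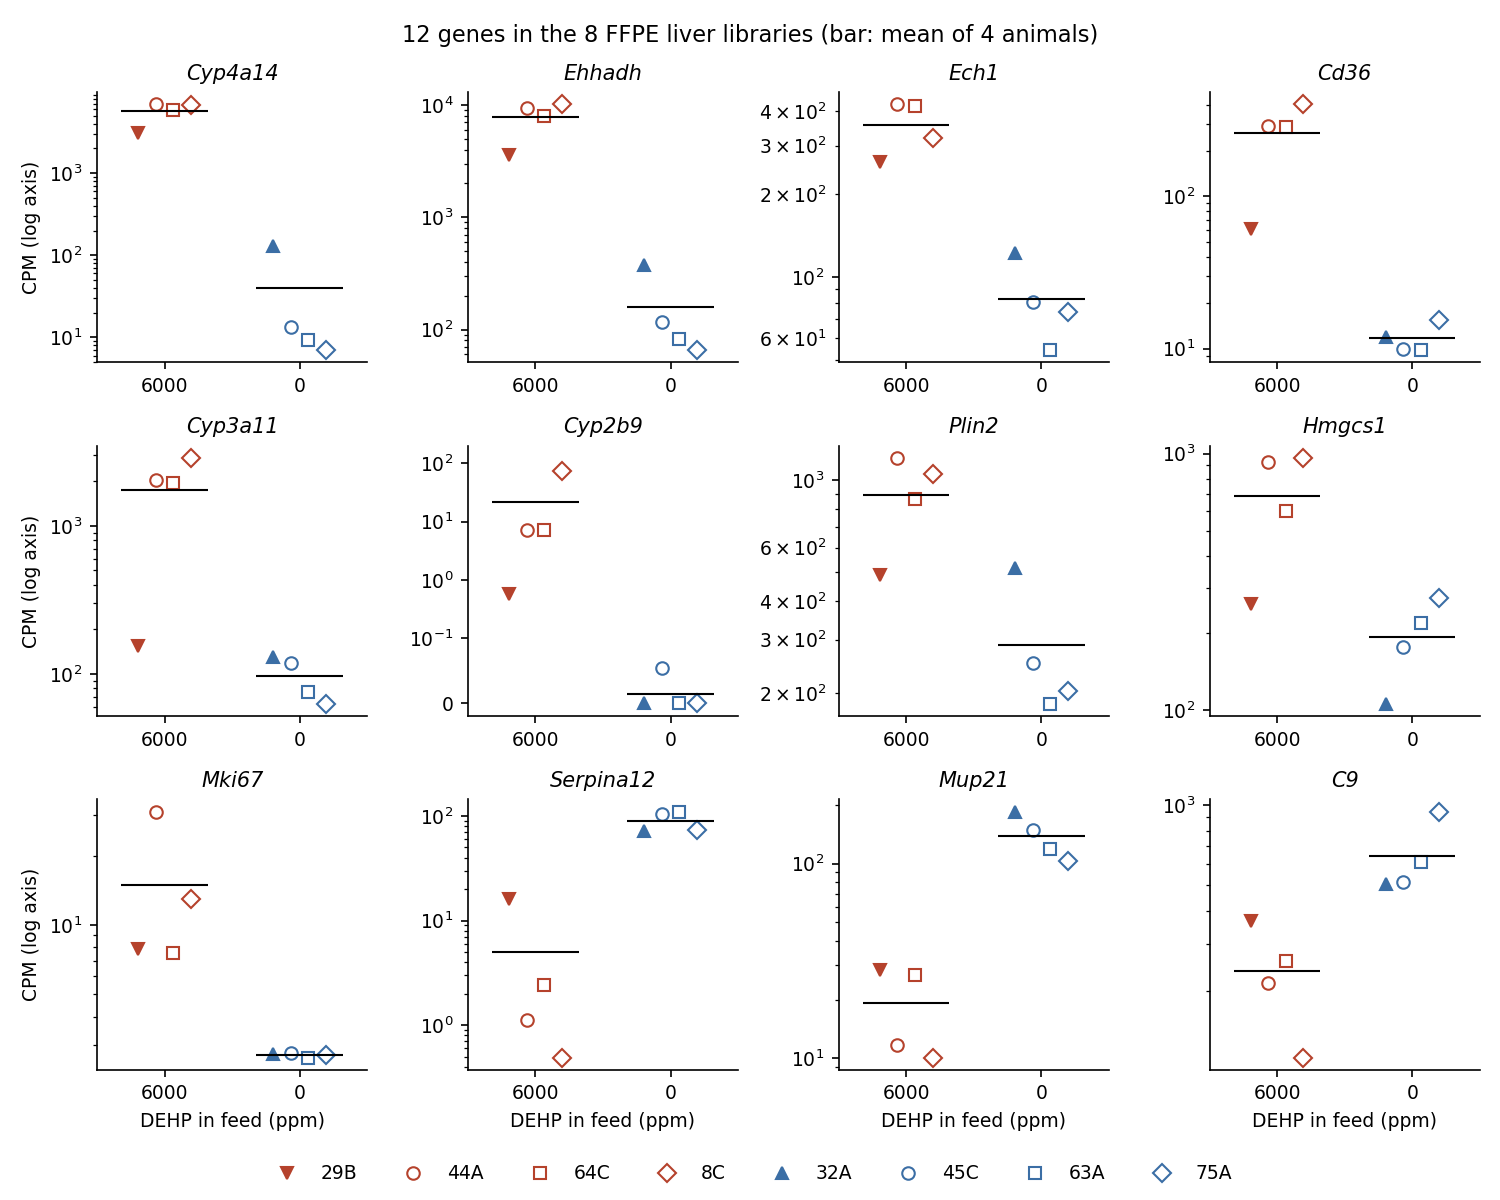
CPM of 12 genes in the 8 FFPE libraries, each panel with the 6000 ppm animals left (red) and the 0 ppm animals right (blue), on log axes (for Cyp2b9 the axis is linear below 0.1 CPM so that 0 can be shown); the bar is the mean of 4 animals and filled triangles mark 29B (pointing down) and 32A (pointing up). Animal 29B is the lowest treated library for Cyp4a14 (3039 CPM), Cd36 (61.3 CPM) and Cyp3a11 (155.2 CPM), and 32A is the highest control for Cyp4a14 (130.1 CPM), Ehhadh (373.3 CPM) and Plin2 (515.7 CPM).

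Peroxisomal beta-oxidation, which shortens very long and branched acyl chains, rose in 19 of 26 tested genes (28 listed), and none fell. The list median was 1.30. Ehhadh, the bifunctional enzyme of the middle steps (chromosome 16, 21761287 to 21787807, minus strand), had 3576, 9331, 7933 and 10102 CPM at 6000 ppm in 29B, 44A, 64C and 8C, against 373.3, 116.4, 81.9 and 65.6 CPM at 0 ppm in 32A, 45C, 63A and 75A, so the lowest treated library stood well above the highest control (5.60 ± 0.51, adjusted p 3.23e-06; 6.46 ± 0.36 without 32A). Ech1, an isomerase, had 261.9, 424.3, 418.6 and 319.8 CPM at 6000 ppm and 122.6, 80.9, 54.1 and 74.2 CPM at 0 ppm (2.10 ± 0.21, adjusted p 1.03e-05). The transporters Abcd2 and Abcd3, the thiolases Acaa1a and Acaa1b, Crat, Crot, Hsd17b4 and Slc27a2 were also among the rises, while Cat, Scp2, Phyh, Pecr, Acox3 and Acot12 were among those that did not pass.

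Among genes that build and divide peroxisomes, 6 of 22 tested rose, among them Pex5, Pex11a, Pex14, Pex16 and Pex19, and none fell, with a list median of 0.22. Pex11a, which drives elongation and division of the organelle, had 32.4, 80.0, 63.2 and 67.4 CPM at 6000 ppm and 18.6, 9.74, 6.86 and 6.72 CPM at 0 ppm (2.54 ± 0.32, adjusted p 6.99e-05). Pex19, the chaperone of peroxisomal membrane proteins, rose by 0.86 ± 0.15, and Pex5, the import receptor of matrix proteins, by 0.56 ± 0.10.

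Mitochondrial beta-oxidation rose in 23 of 27 tested genes, the largest share called among the 31 gene lists, with none lower and a median of 1.06. Acot2, a thioesterase of the mitochondrial matrix (chromosome 12, 83987861 to 83993873, plus strand), had 67.0, 296.8, 196.4 and 301.9 CPM at 6000 ppm, against 3.91, 0.653, 0.608 and 0.555 CPM at 0 ppm (7.28 ± 0.58, adjusted p 2.70e-06; 8.45 ± 0.52 without 32A). Its cytosolic neighbour Acot1 had 166.2, 428.1, 348.6 and 468.8 CPM at 6000 ppm and 23.4, 3.43, 1.16 and 0.944 CPM at 0 ppm (5.63 ± 0.75, or 7.57 ± 0.45 without 32A). The peroxisomal Acot3 had 11.9, 66.2, 31.1 and 70.9 CPM at 6000 ppm and 3.45, 0.109, 0.0553 and 0.0555 CPM at 0 ppm (5.72 ± 0.79). Most of its control reads came from 32A, and without that animal the fitted value was 9.11 ± 0.80. The 3 thioesterases lie near each other on chromosome 12. Of their 50-base words, 33.2% for Acot1, 27.7% for Acot2 and 19.5% for Acot3 also occur in some other gene. Acot1 and Acot2 shared most with each other (23.9% and 24.5%), and Acot3 shared most with Gm49366 (11.2%). Part of each value can therefore come from other genes. Eci1, an enoyl-CoA isomerase, rose by 2.02 ± 0.17, and Hadha, a subunit of the trifunctional protein, by 1.32 ± 0.15. Cpt1a, the gatekeeper of acyl entry into mitochondria, had 424.9, 371.5, 438.5 and 348.2 CPM at 6000 ppm and 444.3, 296.6, 215.5 and 301.4 CPM at 0 ppm. The groups overlapped and the gene was not called (0.33 ± 0.18, adjusted p 0.26). Without control 32A its value was 0.55 ± 0.16 (adjusted p 0.038).

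Ketone body synthesis and uncoupling rose in 5 of 6 tested genes (7 listed). Ucp2, a mitochondrial carrier that Kupffer cells also express, had 65.3, 175.6, 114.3 and 72.0 CPM at 6000 ppm, against 10.4, 14.97, 11.7 and 14.9 CPM at 0 ppm (3.04 ± 0.30, adjusted p 7.07e-06). Kupffer cell markers summed to 269.8, 346.1, 262.4 and 157.7 CPM at 6000 ppm in 29B, 44A, 64C and 8C. At 0 ppm the sums were 138.1 to 211.1 CPM. Of 12 markers 0 were called, although all 12 had log2 fold changes above 0 (0.28 to 2.06, median 0.57). Their part in the Ucp2 value was not tested. Pdk4, a kinase that shuts off pyruvate dehydrogenase, was called but overlapped between groups, with 12.1, 157.2, 40.2 and 170.5 CPM at 6000 ppm and 37.1, 8.00, 6.41 and 7.88 CPM at 0 ppm (2.69 ± 0.68, adjusted p 0.016; 3.67 ± 0.69 without 32A). Its adjusted p was above 0.05 when 44A, 45C, 63A or 75A was left out.

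Uptake and binding of fatty acids rose in 11 of 15 tested genes (16 listed), with none lower and a median of 1.16. Cd36, a fatty acid translocase of the plasma membrane (chromosome 5, 17781690 to 17888801, minus strand), had 61.3, 288.9, 283.9 and 403.0 CPM at 6000 ppm and 11.9, 9.91, 9.79 and 15.5 CPM at 0 ppm (4.46 ± 0.41, adjusted p 4.19e-06). Slc27a1, a fatty acid transport protein with acyl-CoA synthetase activity, had 12.5, 42.5, 40.1 and 38.9 CPM at 6000 ppm and 2.48, 2.61, 1.49 and 2.61 CPM at 0 ppm (3.87 ± 0.35). In both genes the treated library 29B was well under the other treated libraries and still above every control. Fabp1, the liver fatty acid binding protein, had 2651, 4493, 4622 and 4753 CPM at 6000 ppm, against 1528, 1056, 986.3 and 672.6 CPM at 0 ppm (1.96 ± 0.23, adjusted p 4.50e-05). Per length, in the FPKM that the authors deposited, Fabp1 averaged 8727 ± 2125 at 6000 ppm and 2478 ± 899 at 0 ppm (SD, n = 4 each), Ehhadh 2506 ± 932 at 6000 ppm and 57.4 ± 53.6 at 0 ppm, and Cyp4a14 2214 ± 691 at 6000 ppm and 17.6 ± 26.8 at 0 ppm. On that scale Fabp1 was the most abundant of these 3 in both groups.

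The Fabp1 promoter is printed because it holds the kind of element that PPAR alpha with RXR is known to bind, a direct repeat of AGGNCA with 1 base between the copies. In the 300 bases around each RefSeq gene start (250 before, 50 after; GRCm38.p6) the repeat AGGNCANAGGNCA, searched on both strands, was found for 0.451% of 27025 genes. Of the 12 genes of the uptake list that matched a promoter by symbol, 1 held it, Fabp1, and none of the 22 matched peroxisomal beta-oxidation genes did. The match, in capitals, starts 67 bases before the gene start, at chr6:71199629-71199928 on the plus strand, and it is a description of letters, not of binding.
Fabp1: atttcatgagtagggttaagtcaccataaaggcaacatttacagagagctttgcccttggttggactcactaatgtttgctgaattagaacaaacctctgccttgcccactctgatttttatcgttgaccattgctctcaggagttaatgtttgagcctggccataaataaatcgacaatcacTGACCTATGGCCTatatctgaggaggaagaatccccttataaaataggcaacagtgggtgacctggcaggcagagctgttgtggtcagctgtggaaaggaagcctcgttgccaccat

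Proteins of the lipid droplet and of lipolysis rose in 10 of 20 tested genes (21 listed), and 1 fell, the carboxylesterase Ces3b. Plin2, which coats lipid droplets, had 489.4, 1179, 867.3 and 1043 CPM at 6000 ppm and 515.7, 252.5, 184.9 and 203.4 CPM at 0 ppm (1.63 ± 0.31, adjusted p 0.0023). Control 32A lay above treated 29B, while the other animals did not overlap. Mgll, which releases glycerol and fatty acid from monoacylglycerol, rose by 1.77 ± 0.16, Fitm1, which promotes droplet formation, by 2.73 ± 0.32, and the triglyceride lipase Pnpla2 by 1.12 ± 0.21.

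Triglyceride assembly and lipogenesis rose in 10 of 30 tested genes (31 listed) and fell in 1, Pklr, the liver pyruvate kinase. Mogat1, which acylates monoacylglycerol, had 2.02, 9.57, 8.81 and 14.1 CPM at 6000 ppm, and its controls held 2 reads in all, with 0, 0, 0.0553 and 0.0555 CPM. The ratio of summed counts was 315 (95% counting interval 86.8 to 2607). Fads2, the delta-6 desaturase, rose by 1.57 ± 0.20, and Me1, which supplies NADPH, by 2.34 ± 0.38, with 256.2, 692.0, 635.4 and 1397 CPM at 6000 ppm and 172.5, 120.5, 205.5 and 88.9 CPM at 0 ppm. Fasn, Acaca, Acly, Srebf1 and Thrsp, which make and regulate new fatty acid, were not called. Without 44A the list held 7 called genes, 6 of them rises.

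Cholesterol synthesis rose in 14 of 25 tested genes and none fell, with a median of 0.88. Hmgcs1, the cytosolic synthase that feeds the mevalonate pathway, had 260.6, 925.1, 595.8 and 962.5 CPM at 6000 ppm and 106.2, 176.6, 219.2 and 274.4 CPM at 0 ppm (1.82 ± 0.34, adjusted p 0.0020). Treated 29B lay just under control 75A. Nsdhl, a sterol dehydrogenase, had 46.2, 93.5, 76.7 and 71.5 CPM at 6000 ppm and 23.3, 23.5, 45.8 and 26.4 CPM at 0 ppm (1.27 ± 0.22), and Hsd17b7, which works at a nearby step, rose by 1.06 ± 0.22. Srebf2, a regulator of the pathway, was not called. Over the list, the median difference from the control mean was 0.22 in 29B, 1.38 in 44A, 0.91 in 64C and 1.24 in 8C at 6000 ppm, and -0.66 in 32A, 0.01 in 45C, 0.48 in 63A and 0.05 in 75A at 0 ppm. The count of rises was 7 without 44A.

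The Hmgcs1 promoter is printed for its match to the sterol element TCACNCCAC, the kind of site through which SREBP factors are known to act on this pathway. Searched on both strands of the same windows, TCACNCCAC was found for 1.44% of all 27025 genes and for 1 of 17 matched genes of the cholesterol list. The match, in capitals, starts 137 bases before the gene start at chr13:119690101-119690400 (GRCm38.p6, RefSeq, plus strand).
Hmgcs1: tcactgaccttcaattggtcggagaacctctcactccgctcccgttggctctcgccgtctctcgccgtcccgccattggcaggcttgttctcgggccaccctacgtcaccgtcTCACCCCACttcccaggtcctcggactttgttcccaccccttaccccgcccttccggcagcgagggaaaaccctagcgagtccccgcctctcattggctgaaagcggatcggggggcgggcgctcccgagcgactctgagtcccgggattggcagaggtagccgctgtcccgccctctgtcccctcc

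Cytochrome P450 genes of drug metabolism rose in 14 of 37 tested genes (45 listed) and fell in 3, with a median of 0.26. Cyp2b10, the classical CAR target (chromosome 7, 25897620 to 25926624, plus strand), had 5.85, 7.81, 4.79 and 7.59 CPM at 6000 ppm and no read in any control, at least 152-fold higher when the floor is set at 3 counts over the 4 controls. With Cyp2b10 at that bound the list median was also 0.26. Its level in 29B was within the range of the other treated animals. Cyp2b9, its neighbour, which in adult mice is mainly a female transcript, had 0.578, 7.17, 7.25 and 72.8 CPM at 6000 ppm and 1 read in all controls, in 45C (ratio of summed counts 1733, 95% counting interval 311 to 68480). Most of those reads came from 8C, and without it the fitted log2 fold change was 7.82, against 9.96 with all animals.

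Cyp3a11, a major drug-oxidising P450 and a target of PXR and CAR (chromosome 5, 145854426 to 145879964, minus strand), had 155.2, 2039, 1935 and 2869 CPM at 6000 ppm and 130.1, 119.1, 75.4 and 63.0 CPM at 0 ppm (4.17 ± 0.58, adjusted p 1.63e-04). In 29B it was close to control 32A, and in the other treated animals it was far above every control. Cyp2c55, another CAR and PXR target, had 0.722, 3.52, 1.98 and 5.13 CPM at 6000 ppm and 0.652, 0.435, 0.664 and 0.389 CPM at 0 ppm (2.41 ± 0.43). Cyp2c29 rose by 1.90 ± 0.20, and Cyp2c70, which makes muricholic acids in mice, fell to 172.4, 134.4, 87.3 and 107.5 CPM at 6000 ppm, against 359.5, 506.4, 509.9 and 524.5 CPM at 0 ppm (-1.92 ± 0.22, adjusted p 2.83e-05). Cyp2c68 and Cyp2u1 were the other falls. Without 44A, 9 of the list rose and 2 fell.

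Conjugation and efflux enzymes rose in 21 of 45 tested genes (47 listed) and fell in 3, the sulfotransferase Sult1a1 and the glucuronosyltransferases Ugt2a3 and Ugt2b1. Aldh3a2, a fatty aldehyde dehydrogenase, had 572.4, 1409, 1262 and 1456 CPM at 6000 ppm and 149.2, 73.1, 43.7 and 48.1 CPM at 0 ppm (3.90 ± 0.36, adjusted p 4.36e-06). The glutathione transferases Gstt2 and Gstm4 rose by 2.96 ± 0.26 and 2.396 ± 0.226. Targets of NRF2, the antioxidant regulator, rose in 13 of 21 tested genes (23 listed) and fell in 1, Slc7a11. Gsr, which regenerates glutathione, had 71.4, 109.0, 98.2 and 104.0 CPM at 6000 ppm and 49.9, 52.9, 49.8 and 54.6 CPM at 0 ppm (0.89 ± 0.11, adjusted p 8.83e-05). Htatip2, an oxidoreductase, rose by 1.25 ± 0.20, and Ftl1, the ferritin light chain, by 1.20 ± 0.20, although 78.9% of the 50-base words of Ftl1 occur in other genes, mostly pseudogenes. Hmox1, Gclm and Txnrd1 were not called, and without 44A the count for NRF2 targets was 8.

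**Figure D2:**
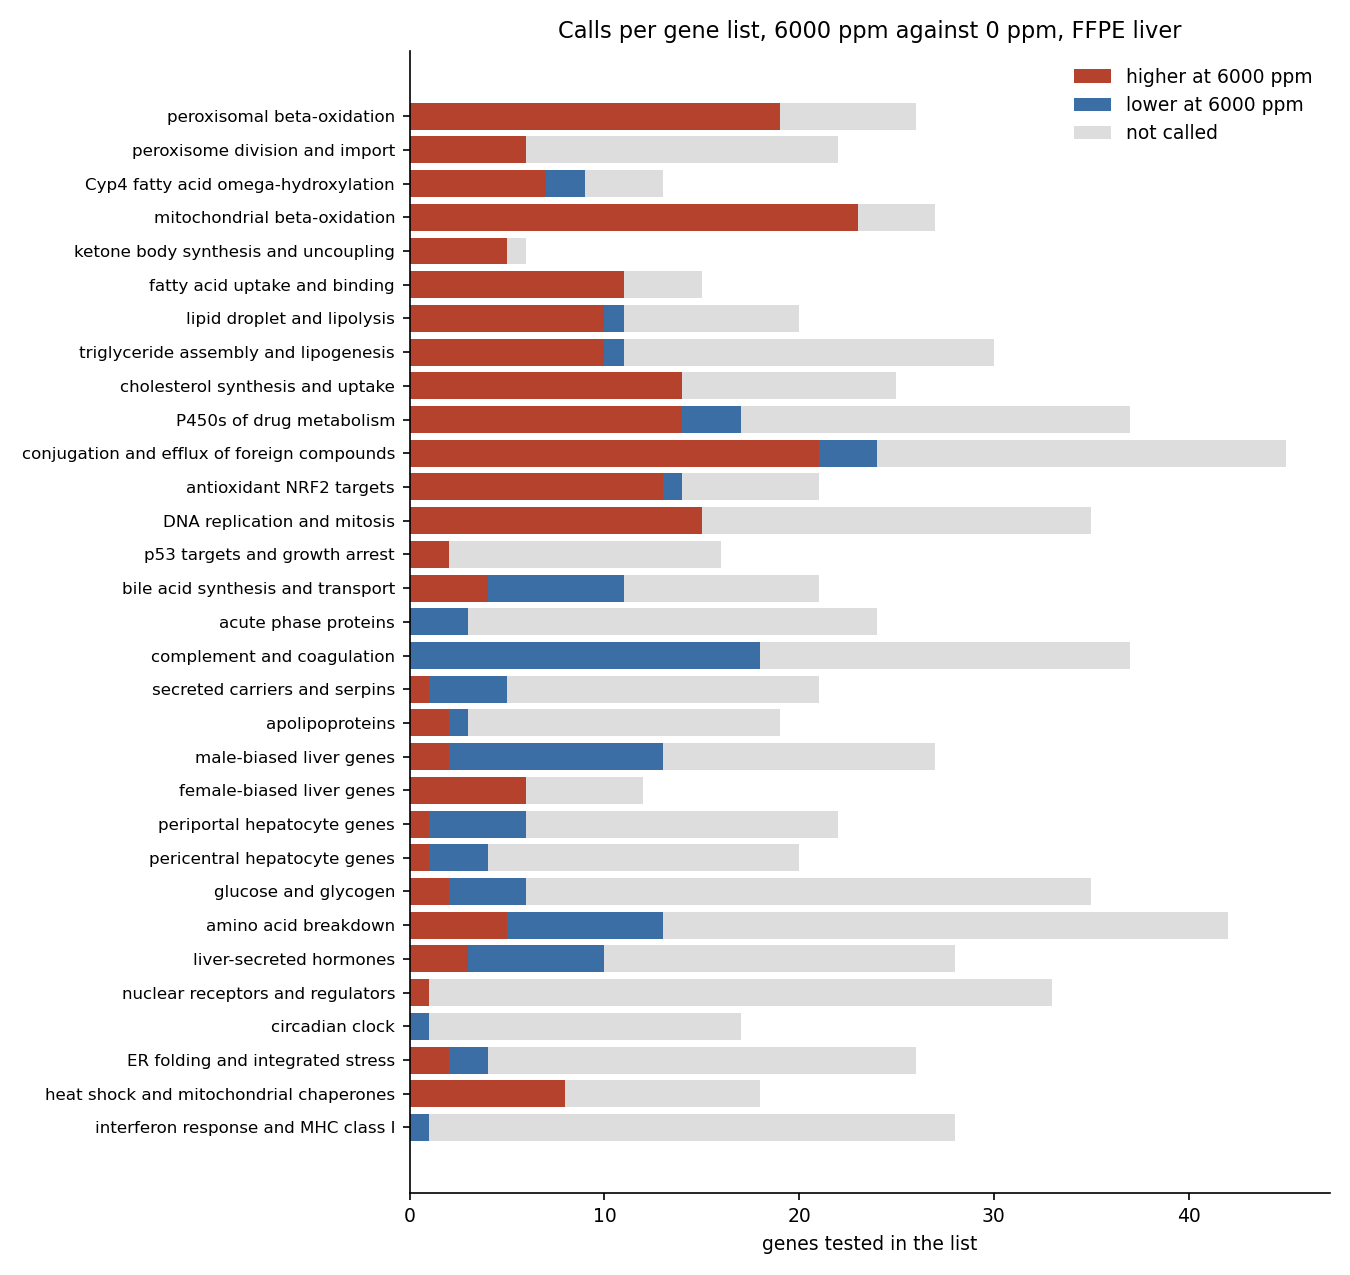
Genes tested in each of 31 lists, split into those higher at 6000 ppm (red), lower at 6000 ppm (blue) and not called (grey) at an adjusted p of 0.05. The longest red bars are conjugation and efflux (21), mitochondrial beta-oxidation (23) and peroxisomal beta-oxidation (19), and the longest blue bar is complement and coagulation (18).

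Genes of DNA replication and mitosis rose in 15 of 35 tested genes (37 listed), with none lower and a median of 1.09. Mki67, a marker of cycling cells (chromosome 7, 135689784 to 135716361, minus strand), had 7.87, 31.02, 7.55 and 12.99 CPM at 6000 ppm and 2.74, 2.78, 2.65 and 2.72 CPM at 0 ppm (2.44 ± 0.42, adjusted p 0.0010; 1.80 ± 0.32 without 44A). Every treated animal was above the narrow range of the controls, and 44A was highest. The replication helicase subunits Mcm2 and Mcm4 rose by 1.60 ± 0.28 and 1.06 ± 0.21. Ccnd1, the cyclin of early G1, had 25.9, 59.9, 33.8 and 47.1 CPM at 6000 ppm and 6.91, 41.9, 13.4 and 7.16 CPM at 0 ppm, and it was not called (1.26 ± 0.48, adjusted p 0.098) unless control 45C was left out (2.17 ± 0.38, adjusted p 0.0021). Without 44A, 8 genes of the list rose. In RNA from whole tissue, more cells of a type and more RNA per cell cannot be told apart, and likewise for falls.

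Of 16 genes of the p53 response tested (17 listed), 2 were called, or 12.5%, which is near the share over all genes. These were rises of Bbc3, a pro-apoptotic BH3 protein (1.15 ± 0.28), and Sesn1, a stress-induced regulator of growth (0.61 ± 0.17, adjusted p 0.031). Cdkn1a, Mdm2, Ccng1 and Gdf15 did not pass. The Sesn1 call was lost when 44A, 64C, 8C, 32A or 45C was left out.

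Of 18 heat shock and mitochondrial chaperone genes tested, 8 rose and none fell, among them the cytosolic Hsp90aa1 and Hsp90ab1 and the mitochondrial Hspa9, Trap1 and Lonp1. Hspd1, the mitochondrial HSP60, had 386.8, 545.6, 567.1 and 609.9 CPM at 6000 ppm and 273.1, 265.6, 237.5 and 238.8 CPM at 0 ppm (1.05 ± 0.14, adjusted p 9.18e-05), its partner Hspe1 rose by 1.09 ± 0.15, and the small heat shock protein Hspb1 by 1.75 ± 0.40. For Hspd1, 44.8% of the 50-base words also occur elsewhere, mostly in pseudogenes. Without 64C or without 75A, 4 genes of the list were called, and without 44A or without 32A, 5 were. In the endoplasmic reticulum list, 2 of 26 tested genes rose (27 listed) and 2 fell, or 15.4% called, against 12.4% over all genes. The rises were Psat1 of serine synthesis (1.94 ± 0.49) and the pseudokinase Trib3 (1.67 ± 0.46). The falls were Dnajc3 (-0.82 ± 0.22) and Pdia6. That list spread widely among the controls, with a median of -0.70 in 32A and 0.76 in 45C, and without 32A it held 14 called genes, 12 of them falls. It held 1 without 44A, 64C or 45C and 2 without 63A, and the Psat1, Trib3 and Dnajc3 calls were each lost without at least 1 animal.

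Proteins that the liver secretes into blood were among the falls. Complement and coagulation factors fell in 18 of 37 tested genes and none rose, with a median of -0.50. C9, the pore-forming last component of complement, had 365.6, 214.2, 258.3 and 112.2 CPM at 6000 ppm and 502.5, 511.0, 610.0 and 943.2 CPM at 0 ppm (-1.43 ± 0.28, adjusted p 0.0031). F11, coagulation factor XI, fell by 1.07 ± 0.19 on the log2 scale, and C1s, a protease that starts the classical pathway, by 0.77 ± 0.12. C3, F2 and the fibrinogen genes Fga and Fgb did not pass, while Fgg fell. Leaving out 44A left 9 falls, and leaving out 64C or 63A left 11.

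Acute phase proteins spread widely within both groups. Over this list the median difference from the control mean was -0.19 in 29B, -0.23 in 44A, -0.41 in 64C and -1.72 in 8C at 6000 ppm, and -1.04 in 32A, 0.09 in 45C, -0.06 in 63A and 1.11 in 75A at 0 ppm. Of 24 tested genes (26 listed), 3 fell, or 12.5%, which is near the share called over all genes (12.4%). These were the protease inhibitor Serpina3m (-1.65 ± 0.27) and the inter-alpha-trypsin inhibitor chains Itih1 (-0.60 ± 0.13) and Itih2 (-0.55 ± 0.13). The serum amyloid genes Saa1, Saa2 and Saa3 did not pass, and 9 genes fell without control 32A and 5 without treated 29B.

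Serpina12, which encodes the adipokine vaspin, had the largest fall of all genes named by the rule (chromosome 12, 104028769 to 104044443, minus strand). It had 16.1, 1.13, 2.397 and 0.491 CPM at 6000 ppm, against 71.4, 103.6, 109.6 and 74.0 CPM at 0 ppm (-4.19 ± 0.69, adjusted p 7.34e-04). Treated 29B kept the highest level of its group, and without it the value was -6.07 ± 0.49. Among 21 secreted carriers and serpins tested, 4 fell (Serpina12, Serpina1d, Serpina1e and Ahsg) and 1 rose, the thyroxine-binding Serpina7 (0.93 ± 0.22). Ahsg, fetuin-A, fell to 2134 ± 665 CPM at 6000 ppm, against 3560 ± 332 at 0 ppm (SD, n = 4 each; adjusted p 0.021), a call lost without 44A, 64C or 45C. Without 44A the list held 2 called genes. Alb, albumin, averaged 24656 ± 2392 CPM at 6000 ppm and 25050 ± 4219 CPM at 0 ppm and was not called (-0.02 ± 0.19, adjusted p 0.95). Of 19 apolipoprotein and lipoprotein genes, 2 rose and 1 fell, or 15.8% called, against 12.4% over all genes. The rises were Pltp, which transfers phospholipids between lipoproteins (1.88 ± 0.30), and Mttp, which loads lipid on apolipoprotein B (0.61 ± 0.14). Apoa4 fell to 83.2, 71.8, 35.3 and 20.1 CPM at 6000 ppm, against 159.7, 273.6, 149.2 and 169.3 CPM at 0 ppm (-1.84 ± 0.38, adjusted p 0.0047).

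Other large falls named by the rule lay outside the lists. Gpr110, an adhesion G protein-coupled receptor, had 2.31, 1.27, 1.14 and 0.437 CPM at 6000 ppm and 11.3, 12.6, 14.7 and 10.8 CPM at 0 ppm (-3.28 ± 0.39, adjusted p 4.62e-05). Col27a1, a fibrillar collagen, had 13.4, 5.98, 7.49 and 6.99 CPM at 6000 ppm and 83.7, 60.1, 43.1 and 19.04 CPM at 0 ppm (-2.61 ± 0.35). The groups did not overlap for either gene, which the rule that named them required. Lrtm1, a leucine-rich repeat membrane protein, fell by 3.01 ± 0.45 on the log2 scale, Dsg1c, a desmosomal cadherin, by 2.23 ± 0.38, and Fam198a by 2.10 ± 0.37. The calls of Moxd1 (-2.53 ± 0.80), the pseudogene Serpina4-ps1 (-2.94 ± 0.89) and the galactosyltransferase B3galt1 (-2.02 ± 0.54) were each lost when one of several animals was left out. Among the rises outside the lists was Ly6d, a GPI-anchored surface protein, with 7.87, 54.8, 12.1 and 9.17 CPM at 6000 ppm and 0.391, 0.0544, 0.0553 and 0.833 CPM at 0 ppm (5.95 ± 0.86, adjusted p 2.57e-04), highest in 44A. The value was 4.85 ± 0.69 without 44A and 6.99 ± 1.06 without 75A.

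Many liver genes differ between male and female mice, a pattern known to be set by pulses of growth hormone. Of 27 male-biased genes tested (28 listed), 11 fell and 2 rose, with a median of -0.77. Mup21, a major urinary protein, had 28.5, 11.7, 26.9 and 10.1 CPM at 6000 ppm and 184.5, 149.2, 118.8 and 103.1 CPM at 0 ppm (-2.85 ± 0.36, adjusted p 7.97e-05). The falls included Mup3, Mup7, Mup20, Hsd3b5 and Slco1a1, and the rises were Cyp4a12a and Cyp4a12b, which also belong to the Cyp4 list. Major urinary protein genes are near copies of each other, and 19.3% of the 50-base words of Mup21 occur in another gene. Of 25 female-biased genes listed, 12 passed the filter on low counts and 6 of those rose, among them Cyp2b9, Cyp3a41b, Cyp3a44 and Abcd2. A female-biased gene that was raised at any dose could pass that filter through the treated animals, so this count is a description. Cyp2a4, a testosterone hydroxylase, had 0.506, 13.6, 1.02 and 18.6 CPM at 6000 ppm and 2 reads over all controls, both in 45C (ratio of summed counts 308, 95% counting interval 85.0 to 2552), and 38% of its 50-base words occur elsewhere, mostly in Cyp2a5. Cyp17a1, a steroid hydroxylase, had 19.1, 24.5, 11.99 and 24.9 CPM at 6000 ppm and 3.13, 3.48, 4.65 and 8.99 CPM at 0 ppm (1.99 ± 0.31, adjusted p 4.60e-04). The male-biased list had medians of -0.32 in 29B, -0.86 in 44A, -0.53 in 64C and -1.32 in 8C, while the controls ranged from -0.09 to 0.11.

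Of 21 tested genes that make or carry bile acids, 7 fell and 4 rose, with a median of -0.41. Cyp7a1, which sets the pace of bile acid production, had 9.82, 2.67, 6.77 and 6.61 CPM at 6000 ppm and 19.5, 15.1, 22.7 and 29.9 CPM at 0 ppm (-1.75 ± 0.46, adjusted p 0.018), a call lost without 44A or without 75A. Slco1a1, an organic anion uptake carrier, had 293.7, 117.0, 258.6 and 173.7 CPM at 6000 ppm and 657.0, 465.8, 547.6 and 473.9 CPM at 0 ppm (-1.35 ± 0.28). Cyp39a1, an oxysterol hydroxylase, fell by 1.68 ± 0.41 on the log2 scale. For Cyp39a1, treated 29B (7.22 CPM) lay above control 32A (6.71 CPM), and the call was lost without 75A. The bile salt export pump Abcb11 and the uptake carriers Slc10a1, Slc22a7 and Slco1b2 also fell. The rises included Abcb4, which flips phospholipid into bile (0.80 ± 0.18) and the sterol exporters Abcg5 and Abcg8. Cyp8b1, which makes cholic acid, had 213.6, 227.5, 247.3 and 213.7 CPM at 6000 ppm and 205.3, 164.0, 158.9 and 190.6 CPM at 0 ppm. Its groups did not overlap, but it was not called (0.33 ± 0.14, adjusted p 0.14). The list held 3 called genes without 44A, and 5 without 64C or without 75A.

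Periportal genes fell in 5 of 22 tested and rose in 1 (Hsd17b13), with the urea cycle genes Cps1 and Asl lower by 0.80 ± 0.16 and 0.71 ± 0.11 on the log2 scale. Pericentral genes fell in 3 of 20 tested (Gulo, Lect2 and Slc13a3) and rose in 1, and Gulo, the last step of vitamin C synthesis in mice, had a value of -0.87 ± 0.19. Markers of that zone such as Glul, Cyp2e1, Axin2 and Lgr5 were not called. Glucose and glycogen genes fell in 4 of 35 tested (36 listed) and rose in 2, or 17.1% called, against 12.4% over all genes. The falls were Gckr, Khk, Slc2a2 and Slc37a4, the glucose 6-phosphate carrier (-0.98 ± 0.25). The rises were Pdk4 and the glycerol phosphate dehydrogenase Gpd1 (0.71 ± 0.17). Without 44A 1 of the list was called, and without 45C or without 63A 3 were. The pericentral list held 1 call without 44A and 2 without 64C, 63A or 75A. Amino acid breakdown fell in 8 of 42 tested genes and rose in 5. Cdo1 and Csad, consecutive steps from cysteine to taurine, differed in direction: Cdo1 had 445.0, 260.4, 410.6 and 330.1 CPM at 6000 ppm and 892.0, 682.4, 817.7 and 717.3 CPM at 0 ppm (-1.11 ± 0.19), and Csad had 52.7, 149.1, 148.9 and 99.4 CPM at 6000 ppm and 36.4, 37.8, 13.6 and 33.5 CPM at 0 ppm (1.89 ± 0.30). Dpyd, of pyrimidine breakdown, fell by 0.65 ± 0.14 on the log2 scale. Without 44A or without 64C, 6 genes of the amino acid list were called.

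A list of hormones that the liver secretes, together with some receptors and the enzymes Vnn1 and Retsat, fell in 7 of 28 tested genes (Egfr, Ghr, Hamp, Hamp2, Igf1, Lect2 and Prlr) and rose in 3. Vnn1, a pantetheinase, had 119.6, 217.7, 249.0 and 219.0 CPM at 6000 ppm and 33.9, 5.39, 2.99 and 7.27 CPM at 0 ppm (4.03 ± 0.53, adjusted p 1.03e-04; 5.27 ± 0.30 without 32A), Retsat, a retinol saturase, rose by 3.25 ± 0.32 and Igfbp2, an IGF carrier, by 0.98 ± 0.19. Fgf21, a hormone of fasting, had 4.62, 4.64, 4.44 and 8.08 CPM at 6000 ppm and 6.39, 2.39, 2.38 and 2.33 CPM at 0 ppm. It was not called (0.71 ± 0.36, adjusted p 0.22), and it was called without control 32A (1.20 ± 0.33, adjusted p 0.025).

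Among nuclear receptors and their partners, 1 of 33 tested genes rose (34 listed), namely Creb3l3, a hepatocyte transcription factor of the endoplasmic reticulum (0.69 ± 0.16, adjusted p 0.011), and none fell. Ppara had 390.4, 306.6, 456.5 and 336.1 CPM at 6000 ppm and 495.4, 252.9, 213.9 and 288.9 CPM at 0 ppm (0.25 ± 0.21, adjusted p 0.49), with 0.56 ± 0.16 (adjusted p 0.035) when control 32A was left out, which made 5 called genes of the list, and without 29B there were 2. Nr1i3 (CAR), Nr1i2 (PXR), Rxra, Hnf4a and Nfe2l2 (NRF2) were not called. Of 17 clock genes tested, 1 fell, Nfil3 (-0.84 ± 0.19), and of 28 interferon and class I genes 1 fell, H2-Q4 (-0.45 ± 0.14, adjusted p 0.040), a call lost in 7 of 8 fits that each left out an animal.

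Markers of the cell types in liver were checked in the same libraries. Hepatocyte markers summed to 51880 to 60470 CPM at 6000 ppm and 57960 to 66920 CPM at 0 ppm, with 1 of 10 called (Ahsg, lower). Endothelial markers summed to 393.8 to 490.4 CPM at 6000 ppm and 418.0 to 462.2 CPM at 0 ppm with 0 of 12 called, and stellate cell markers to 333.8 to 365.9 CPM at 6000 ppm and 314.4 to 387.2 CPM at 0 ppm with 3 of 12 called. Of those, Col3a1, a collagen, was higher (0.85 ± 0.24), and Hgf (-0.56 ± 0.16) and Reln (-0.32 ± 0.10) were lower, and each of these calls was lost in 5 or 6 of 8 fits that each left out an animal. Lymphocyte markers summed to 3.47 to 6.01 CPM at 6000 ppm and 5.28 to 9.07 CPM at 0 ppm, and Cd4, a receptor of helper T cells that some macrophages also carry, had 1.45, 0.281, 0.839 and 0.328 CPM at 6000 ppm and 2.61, 4.25, 5.86 and 4.55 CPM at 0 ppm (-2.59 ± 0.41, adjusted p 5.89e-04). The only other lymphocyte marker tested, Cd8a of killer T cells, had 1.30, 3.45, 1.62 and 3.33 CPM at 6000 ppm and 1.17, 2.01, 2.10 and 1.72 CPM at 0 ppm and was not called (0.47, adjusted p 0.40), so the lower sum rests on Cd4. The only exocrine pancreas marker tested, Cela1, was lower at 6000 ppm, a call lost in 6 of those fits. Neutrophil, bile duct, adipose and red blood cell markers had no call, and skeletal muscle markers summed to less than 1 CPM in every library.

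The 8 animals did not respond alike. Over 1075 rises that were also tested in frozen liver, 29B was the lowest of the 4 treated FFPE libraries for 695 (64.7%), against 278 for 8C, 79 for 64C and 23 for 44A. In frozen liver of the same animals 29B was lowest for 794 of these genes (73.9%). Among the controls, 32A was the highest FFPE library for 422 of the rises (39.3%) and the highest frozen library for 494 (46%). Over the peroxisomal list the median difference from the control mean was 0.97 in 29B, 1.49 in 44A, 1.43 in 64C and 1.13 in 8C at 6000 ppm, and 0.60 in 32A, -0.08 in 45C, -0.26 in 63A and -0.09 in 75A at 0 ppm. In frozen liver 32A had 0.60 and 29B had 0.88 on the same measure. These orders are descriptions, since the genes were called in the FFPE libraries. Leaving out 29B gave 1722 called genes and leaving out 32A gave 1560, whereas leaving out 44A gave 856 and 64C gave 1078.

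**Figure D3:**
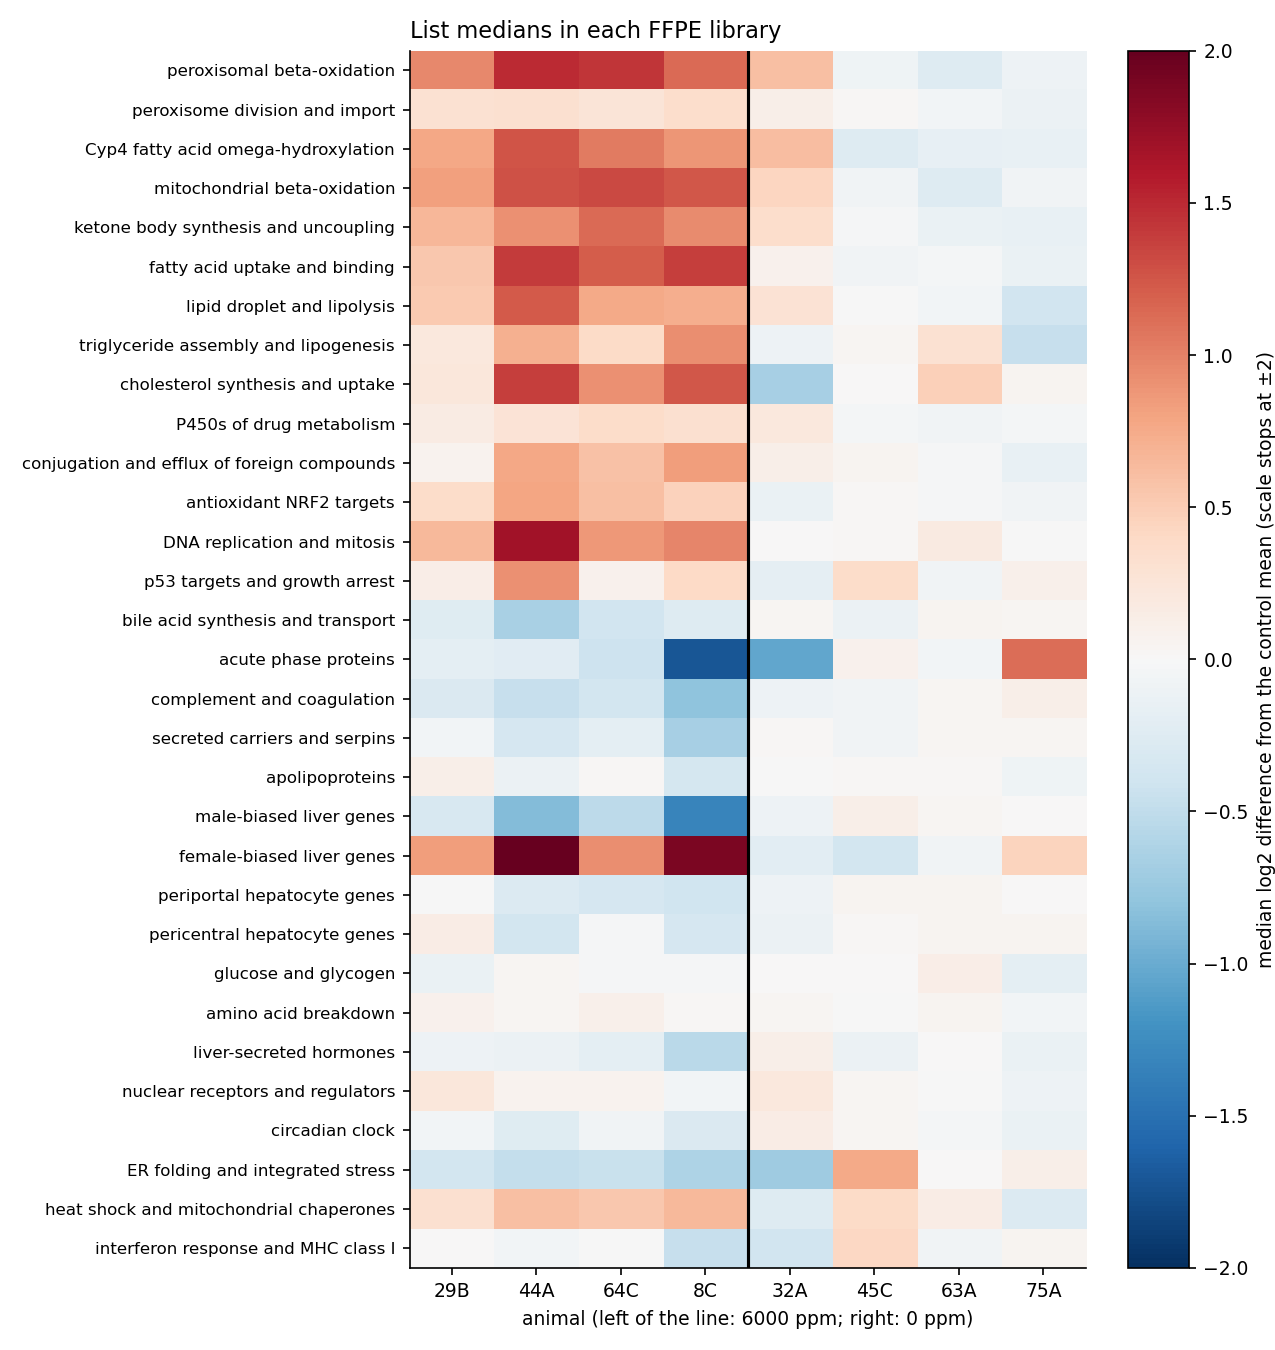
Median over each list's tested genes of the log2 difference between a library and the mean of the 4 controls, one column per animal, 6000 ppm left of the black line and 0 ppm right of it (red higher, blue lower, scale stopped at 2 in either direction). The Cyp4, peroxisomal and mitochondrial beta-oxidation lists are red in all 4 treated animals and paler red in control 32A (0.60 for peroxisomal beta-oxidation). Control 32A is near 0 for fatty acid uptake and binding (0.09) and for triglyceride assembly and lipogenesis (-0.10). Acute phase proteins are blue in 8C (-1.72) and 32A (-1.04).

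Doses were compared within FFPE liver to see which genes at 6000 ppm also differed from the lowest dose. Of 13581 genes, 1 passed between 6000 and 1500 ppm (0.00736%), and 664 had an unadjusted p under 0.05. Those 664 are close to the number that this threshold would pass if no gene differed. This comparison uses the same 6000 ppm libraries as the one with controls. The gene was Cyp2b10, with no read at 0 ppm, 0.111, 0, 0.332 and 0.329 CPM at 1500 ppm, 0.609, 1.54, 0.822 and 0.468 CPM at 3000 ppm, and 5.85, 7.81, 4.79 and 7.59 CPM at 6000 ppm (4.96 ± 0.51 for 6000 against 1500 ppm, adjusted p 0.0016). By contrast, Cyp4a14 averaged 40.0 ± 60.2 CPM at 0 ppm, 3142 ± 138 at 1500, 5135 ± 449 at 3000 and 5652 ± 1802 at 6000 ppm (SD, n = 4 each), and Ehhadh averaged 159.3 ± 144.2, 3628 ± 308, 6193 ± 215 and 7736 ± 2915 CPM in the same order. Neither passed between 6000 and 1500 ppm (Cyp4a14 0.85 ± 0.64, adjusted p 1, and Ehhadh 1.09 ± 0.42, adjusted p 0.92). DESeq2 called 5 genes, and edgeR called 12 when 29B was left out.

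**Figure D4:**
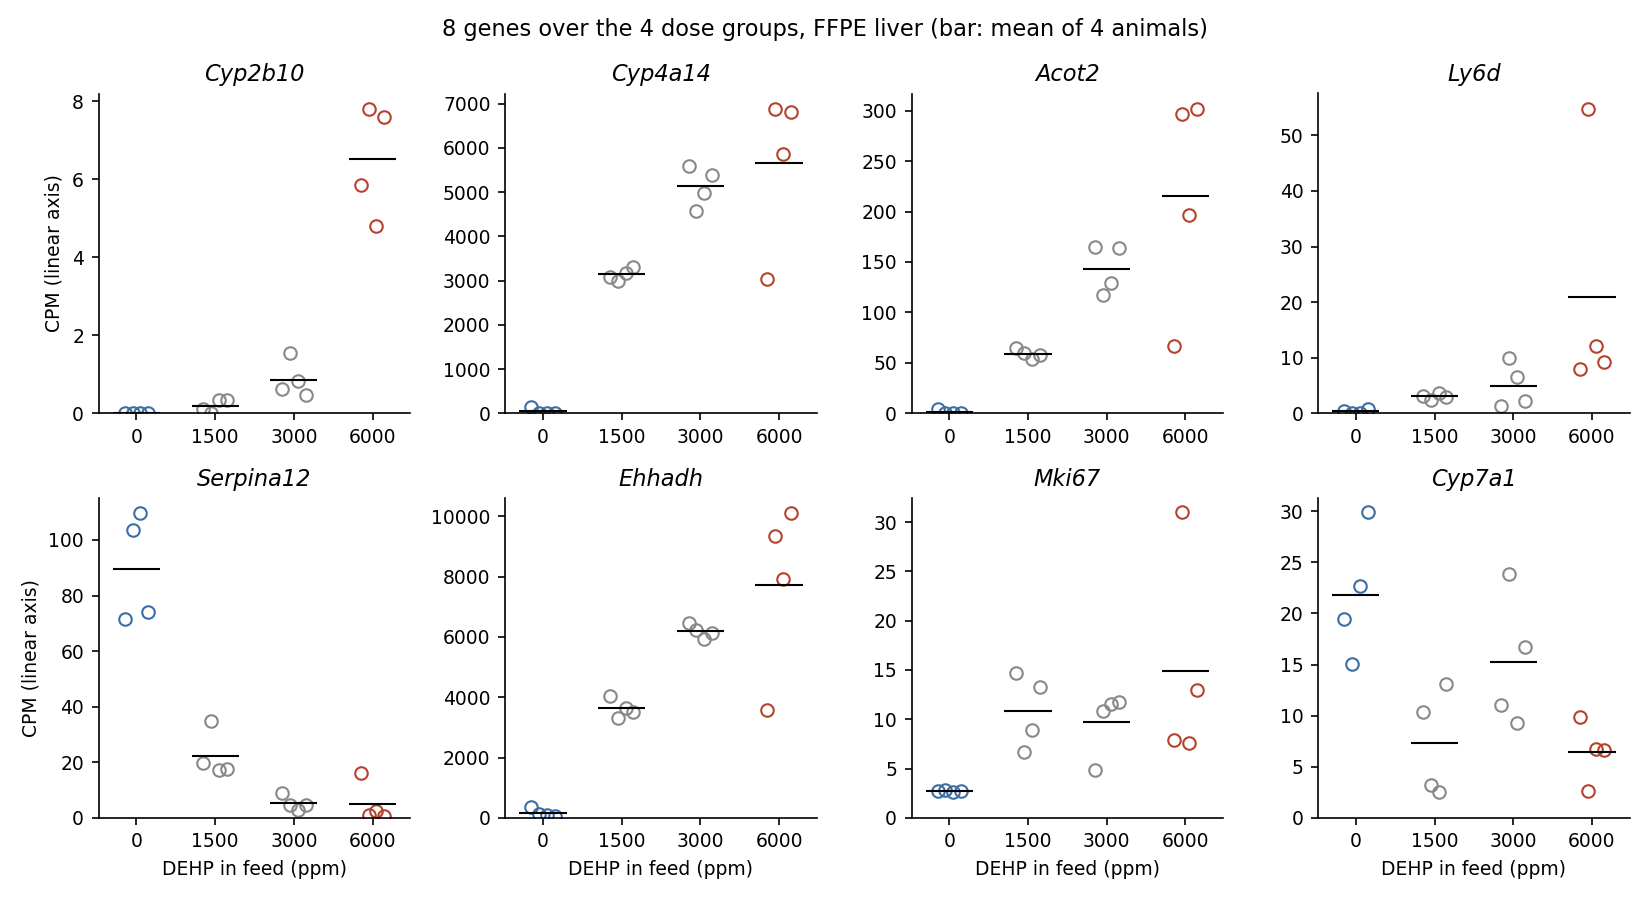
CPM on linear axes of 8 genes in the 16 DEHP FFPE libraries by dose in the feed (4 animals per dose, bar at the mean). Cyp2b10 is above 4 CPM in every animal at 6000 ppm and at most 1.54 CPM at 3000 ppm, while Ehhadh averages 3628 CPM at 1500 ppm and 7736 CPM at 6000 ppm.

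The FFPE response was set against frozen liver of the same animals. The difference of the 6000 ppm effect between FFPE and frozen liver was tested in edgeR with the animal as block. None of 14065 genes passed an adjusted p of 0.05 (0%), and 254 had an unadjusted p under 0.05. Those 254 are fewer than this threshold would pass if no gene differed, so the p values of this test ran high and the absence of calls carries little weight. With 4 animals per group as well, the result does not show that the effects were equal. Of the 1676 genes called in FFPE liver and tested in both preparations, 1122 were called with the same sign in frozen liver, which is 66.9% of these and 69.9% of the 1605 called in frozen liver. The animals are the same in both, so this is a description. Of the 107 named genes called in FFPE liver, which were picked for large changes or small p values, 100 were also called in frozen liver, and Serpina4-ps1, Bbc3, Sesn1, Trib3, H2-Q4, Hgf and Reln were not. Cd36 had a log2 fold change of 4.46 ± 0.41 in FFPE liver and 4.52 ± 0.38 in frozen liver, with a difference of -0.11 ± 0.18 in the joint fit. For Cyp4a14 the difference was -0.85 ± 0.43 (unadjusted p 0.066). Frozen Cyp2b10 had 6.63, 7.66, 3.64 and 9.91 CPM at 6000 ppm and 0, 0.111, 0 and 0 CPM at 0 ppm, so both preparations had hardly a read in controls.

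**Figure D5:**
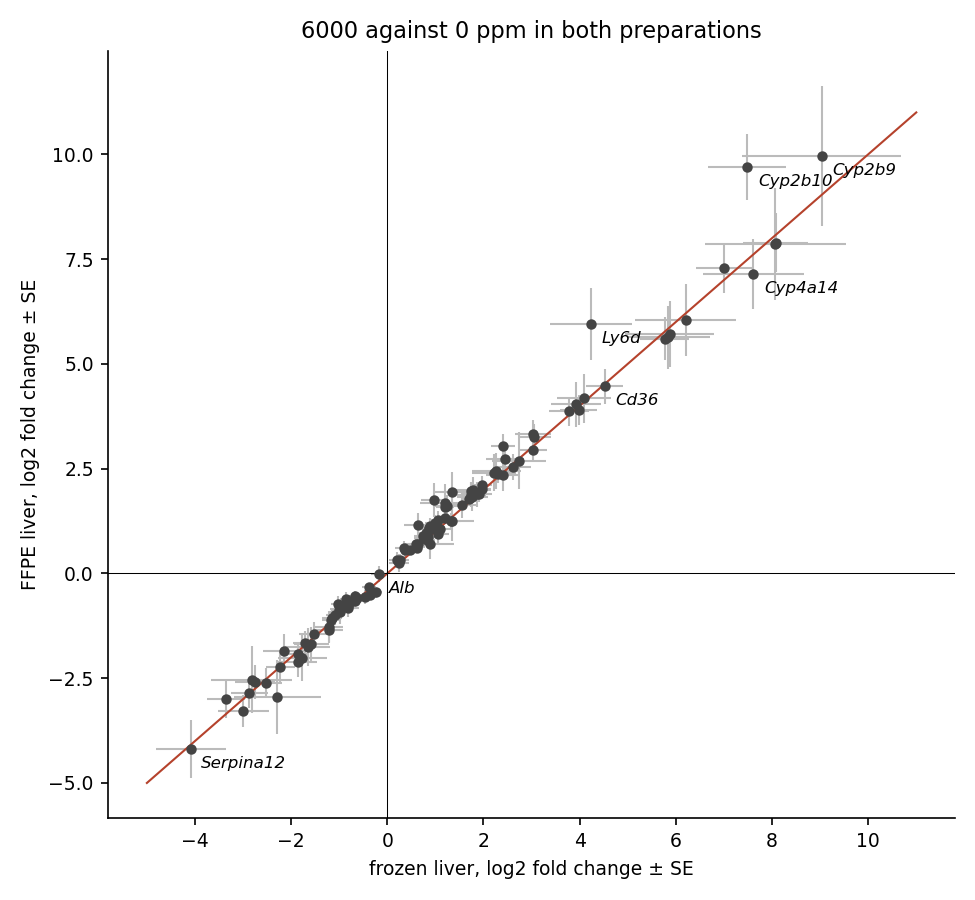
Log2 fold change of 6000 over 0 ppm for the named genes in FFPE liver (vertical) and frozen liver (horizontal), with standard errors, and the line of equal values in red. The axes share animals, so the points are shown without a correlation. Ly6d (5.95 in FFPE liver, 4.24 in frozen liver) lies above the line, but its difference in the joint fit (1.45 ± 0.87) was not called. Control 45C had 4.19 CPM of Ly6d in frozen liver and 0.0544 CPM in FFPE liver. The height of Cyp2b10 is a fitted value over 0 control counts, not a measured fold.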

How the data were processed

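Libraries were made with a stranded total RNA kit after depletion of ribosomal RNA, per the labels' protocols. CASAVA, STAR 2.4, RSEM and the build mm10 are named in the submitters' processing notes. The authors deposited expected counts per gene, not normalised, which were rounded to whole numbers here. The authors also deposited FPKM, used only to compare levels between genes, and a second table of raw counts, used as an alternative. Columns were matched to animals by name.

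A 2-sided quasi-likelihood test (edgeR 4.0.16 with limma 3.58.1 under R 4.3.3) was fitted over the 16 DEHP FFPE libraries and their 4 doses. Low genes were dropped with filterByExpr at a minimum count of 10, libraries were scaled with TMM, and calls were made at a Benjamini-Hochberg adjusted p of 0.05 over every gene tested. The SE is the absolute log2 fold change divided by the square root of F. The difference between preparations was fitted on 32 libraries with the animal as block: the titles give the same animal for both preparations, and 14 of the 16 animals correlated best with their own partner (r 0.0578 to 0.907 over all 16 and 7740 genes), including the 8 compared (0.367 to 0.907) but not 2 at 3000 ppm.

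Genes named with values are, first, the 10 largest rises and 10 largest falls that were called, passing over predicted-gene and clone symbols. For these the log2 of the mean CPM over the 8 libraries was at least 2, which the treated animals alone could reach. All their treated libraries also lay beyond every control. The others named are the 3 called genes of smallest adjusted p in each list, and a fixed set. Of 879 listed genes, 793 were tested, and some members that count in the lists are not reported here by name. The comparison and lists were chosen with earlier results of these data known. Differences by library are of log2(CPM + 0.1). Coordinates are from GENCODE for the same build, and counting intervals and floors cover counting error only. Alternatives were DESeq2 1.42.0, other scalings, filters, thresholds and tables, fits restricted to the libraries compared, a fit with no block for the animal, leaving out animals, removing Rn45s and clone rows and, added after seeing the data, the prefix of the column names as a term.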

Additional observations from a re-analysis of the deposited data

Results flagged for a closer look

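In 33 of 248 groups of 4 values, 1 animal stood far from the other 3. The cutoff would flag about 1 in 20 groups of independent values with a normal spread. These values are CPM, mostly of genes picked for large changes or small p values. They share animals and are not independent, so that rate does not apply to them. Control 32A was high for Acot2 (3.91 CPM), Cyp4a14 (130.1 CPM), Cyp4a10 (188.6 CPM), Acot3 (3.45 CPM), Acot1 (23.4 CPM), Ehhadh (373.3 CPM), Pex19 (85.4 CPM), Acat1 (267.6 CPM), Pnpla2 (26.1 CPM), Vnn1 (33.9 CPM), Pdk4 (37.1 CPM), Fgf21 (6.39 CPM) and Dsg1c (14.7 CPM), and low for Cyp2c70 (359.5 CPM), Psat1 (0.326 CPM) and Hspb1 (2.08 CPM). Treated 29B was low for Eci1 (90.2 CPM), Slc27a1 (12.5 CPM), Fabp1 (2651 CPM) and Gstt2 (20.0 CPM) and high for Serpina12 (16.1 CPM).

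Other treated animals were high for single genes: 8C for Cyp2b9 (72.8 CPM) and Fgf21 (8.08 CPM), and 44A for Ly6d (54.8 CPM) and Ftl1 (3823 CPM). Among the other controls, 45C was high for Cyp2b9 (0.0544 CPM, 1 read), Cyp2a4 (0.109 CPM), Apoa4 (273.6 CPM) and Nfil3 (75.5 CPM) and low for summed hepatocyte markers (57960 CPM), 63A was low for Slc27a1 (1.49 CPM) and high for Nsdhl (45.8 CPM), and 75A was low for Fads2 (122.4 CPM).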

How the results depend on the processing

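The count of 1680 called genes was within 1.5 times under DESeq2 (2139), DESeq2 size factors, upper-quartile factors, no filter (1481), a stricter filter, the second table (1524), removal of Rn45s and clone rows (1635) and column-name prefix as a term (1734, chosen after seeing the data). It was 904 in a fit of only these 8 libraries. At an adjusted p of 0.01 it was 667 and with a 2-fold minimum 543, both fewer by construction. When 1 animal was left out it was 856 to 1951 (856 without 44A, 1078 without 64C). The share of rises, 64.2%, was 58.9% with upper-quartile factors, 63.3% with DESeq2 size factors and 78.3% at an adjusted p of 0.01. When 1 animal was left out, that share ran from 56.7% (without 8C) to 74.6% (without 44A). Between 6000 and 1500 ppm, 1 gene was called except with DESeq2 (5) and without an animal (1 to 12, 12 without 29B). The cause of these moves was not tested. For the difference between the FFPE and frozen effects, 0 genes passed under every alternative run, including no replicate block (0 genes). In the main fit, fewer genes had an unadjusted p under 0.05 than if no gene differed, so this does not show that the effects were equal. Of 107 named genes called, 86 kept the call in all 8 fits without an animal, 16 lost it in the fit of only these 8 libraries, where 19 of 42 list counts also moved by over 1.5 times, and 3 had no adjusted p in DESeq2 (Cyp4a14, Cyp4a10 and Vnn1). The uncalled Alb value of -0.02 changed sign without 44A, 64C, 32A or 63A (lowest -0.1194 without 45C, highest 0.0467 without 32A over all 8). A single read was worth 0.0544 CPM in 45C, so levels well under 1 CPM rest on few reads.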
